A study of Rattus norvegicus with 8 samples.

Results

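The genes described here copy DNA: 43 genes for loading and firing replication origins, for the polymerases, clamp and clamp loader of the fork, for joining and packaging the new strands, and for supplying deoxynucleotides. They were chosen by name, as the probes whose gene name on the array, after removing the ending _predicted, is one of the listed symbols (Orc1l was accepted for Orc1). The array carried 34 of the 43 genes under these names, among 35581 distinct gene names. Another 7 genes were present under other names and are described separately, and no probe was matched to Cdc45 or Chaf1a. Each gene is represented by its brightest probe.

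Thymocytes, the immature T lymphocytes of the thymus, came from male Sprague-Dawley rats whose adrenal glands had been removed, and the thymi of 3 rats were pooled for each preparation. The cells were kept for 6 hours in culture without hormone (Control) or with 100 nM dexamethasone (Dex), a synthetic glucocorticoid that kills these cells by apoptosis. RNA was hybridized to 1-color Agilent whole rat genome arrays, 4 Control and 4 Dex, numbered 1 to 4 in each group. The methods state 3 biological replicates and the labels 4 arrays, so p-values measure the spread between these arrays, which may be technical in part.

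DNA replication begins when the origin recognition complex, with Cdc6 and Cdt1, loads rings of Mcm2 to Mcm7 onto DNA, a step called licensing. At the start of S phase, cyclin E with Cdk2 and the kinase Cdc7 turn loaded rings into active helicases, and polymerases, held to the template by the Pcna clamp, copy both strands. In the thymus, immature T cells divide rapidly before they become resting double positive cells, and many of these genes are transcribed in S phase under factors of the E2F family.

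Of the 34 genes, 31 had a lower mean in Dex than in Control. The median log2 fold change (Dex minus Control, on normalized log2 intensities) was -0.29, against 0.00 over all 41012 probes, of which 20499 were lower in Dex. All 34 genes were well above background. Of the 28476 probes well above background on all arrays of either group, 54.3% were lower, with a median of -0.037. None of the 34 passed limma's moderated test at a Benjamini-Hochberg adjusted p of 0.05 over all probes, a threshold met by 0.778% of all probes in either direction and by 0.215% as lower in Dex. The smallest adjusted p was 0.106, for Dut. An unadjusted limma p below 0.05 with a lower Dex mean was reached by 10 of the 34 genes and by 4.92% of all probes. In 9 of the 34 genes all Dex arrays lay below all Control arrays, which held for 4.51% of all probes. The methods' signal to noise statistic at their thresholds, a nominal p of at most 0.01 and a fold change of at least 1.2, marked 5 of the 34 genes as lower in Dex (Dut, Rpa3, Ccne1, Cdc6 and Mcm4) and 3.2% of all probes as lower. Its p was taken here from the 70 assignments of the arrays with probes pooled, which differs from the random permutations of samples and probes in the methods. When the background was corrected with normexp in place of the scanner software's own subtraction, limma called Dut, Ccne1 and Rpa3, so 3 of the 34 genes, against 1.02% of all probes as lower in Dex. In bulk RNA, fewer cells of a type and less RNA per cell cannot be told apart.

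**Figure D1:**
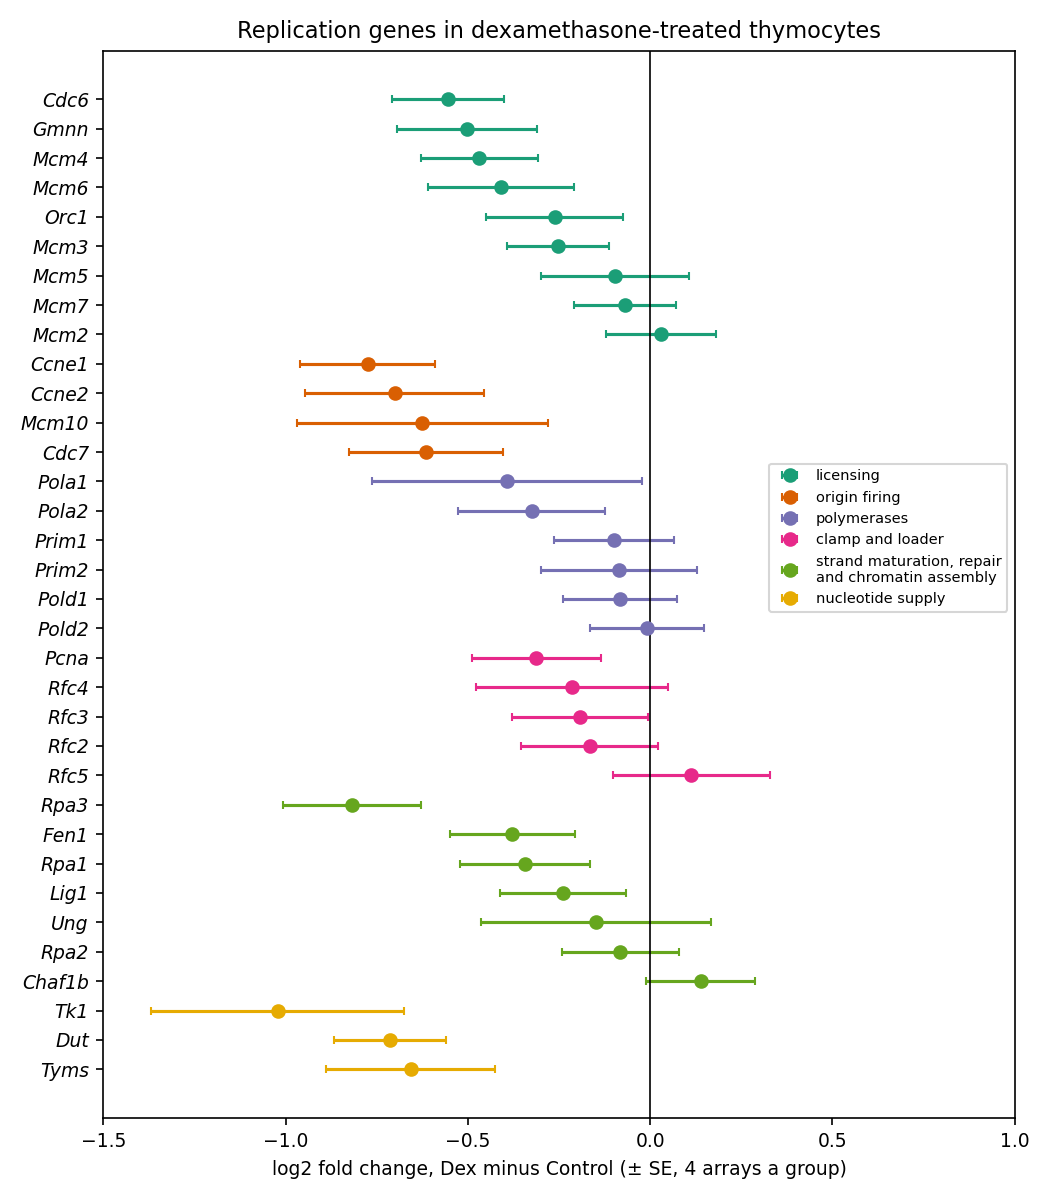
Log2 fold change of the 34 genes (x axis, Dex minus Control; points, limma estimates; bars, ± SE with 4 arrays per group), grouped and colored by role on the y axis. The origin firing and nucleotide supply genes lie at -0.62 or lower, and Mcm2, Rfc5 and Chaf1b lie above 0.

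The fold changes differed in size between roles. The 3 nucleotide supply genes had a median log2 fold change of -0.71, and the 4 origin firing genes one of -0.66. These few genes include the Tk1 probe, whose identity is uncertain. They leave out genes of the same roles under other names, Rrm1 (-0.34), Rrm2 (-0.60) and Dbf4 (0.08), which are described separately. The medians were -0.26 for the 9 licensing genes, -0.24 for the 7 genes of strand maturation, repair and chromatin assembly, -0.19 for the 5 clamp and loader genes and -0.09 for the 6 polymerase genes. On the slide that holds both groups (Dex 3 minus Control 1, no test), the medians were -1.004 for nucleotide supply, -0.88 for origin firing, -0.54 for clamp and loader, -0.43 for strand maturation, repair and chromatin assembly, -0.41 for polymerases and -0.38 for licensing, so that the order of the last 4 roles was not the same. Over the arrays left out in turn, the clamp and loader median ran from -0.29 without Dex 2 to -0.070 without Dex 4 (-0.12 without Control 1 and -0.11 without Dex 3), and the polymerase median from -0.20 without Dex 1 to -0.039 without Dex 4 (-0.14 without Control 3 and without Dex 2, -0.042 without Control 1). With the normexp background the origin firing median was -0.39. The differences between roles were not tested.

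The promoters are shown for 5 genes that share an E2F match and for Ccne1, which has no such match. RefSeq promoter windows (build GRCr8, 250 bases before to 50 bases after the annotated start) were matched for 37 of the 43 genes. Mcm4, Cdc6, Rrm2, Orc1, Ccne2 and Rpa3 had no entry in the table. The letters of the E2F motif searched on both strands were TTTCCCGC, TTTCGCGC, TTTGCCGC and TTTGGCGC. A match was present in 14 of the 37 windows (37.8%) and in 2.14% of all 33469 windows of the same length. In 3 of them (Mcm2, Mcm5 and Mcm6) a pair of matches on opposite strands overlapped. The stretches below lie before the start, are read 5′ to 3′ along the gene's strand, and have the E2F matches in capitals:
Tyms (chr9:120776084-120776143, minus strand): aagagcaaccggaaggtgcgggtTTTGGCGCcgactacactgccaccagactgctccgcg
Mcm6 (chr13:42404453-42404512, minus strand): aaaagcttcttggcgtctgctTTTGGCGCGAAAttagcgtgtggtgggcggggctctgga
Mcm2 (chr4:122918095-122918154, minus strand): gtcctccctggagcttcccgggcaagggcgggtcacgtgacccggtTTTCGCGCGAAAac
Mcm5 (chr19:13488753-13488812, plus strand): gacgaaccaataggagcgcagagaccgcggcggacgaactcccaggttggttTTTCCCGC
Mcm7 (chr12:22163179-22163238, minus strand): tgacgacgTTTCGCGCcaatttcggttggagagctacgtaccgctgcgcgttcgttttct

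The log2 fold changes of these genes were -0.66 for Tyms, -0.41 for Mcm6, 0.03 for Mcm2, -0.10 for Mcm5 and -0.07 for Mcm7. None of them passed limma, and the differences between them were not tested. Of the 12 genes with a match that the array measured under their names, 11 had a lower Dex mean, with a median log2 fold change of -0.22. Of the 17 measured genes whose window held no match, 15 had a lower Dex mean, with a median of -0.31. Ccne1 and Dut were among these 17, as was Tk1, whose probe is of uncertain identity (given with its values). The 250 bases before the start of Ccne1 (chr1:99927910-99928159, minus strand) held 3 GC boxes (GGGCGG on either strand), shown in capitals, and neither an E2F match nor a CCAAT box:
Ccne1: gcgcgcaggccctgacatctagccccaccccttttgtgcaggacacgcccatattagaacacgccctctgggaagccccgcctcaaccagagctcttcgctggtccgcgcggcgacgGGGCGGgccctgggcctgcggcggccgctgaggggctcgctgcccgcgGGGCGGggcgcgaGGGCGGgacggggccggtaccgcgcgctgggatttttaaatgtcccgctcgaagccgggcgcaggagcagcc

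GC boxes were present in 25 of the 37 windows and in 33.1% of all windows, CCAAT on either strand in 21 of the 37 and in 37.5% of all windows. The CHR letters TTTGAA, which occur in promoters of many genes of later cell cycle phases, were present in 5 of the 37 and in 18.3% of all windows. A match is a description of letters and not a bound site.

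**Figure D2:**
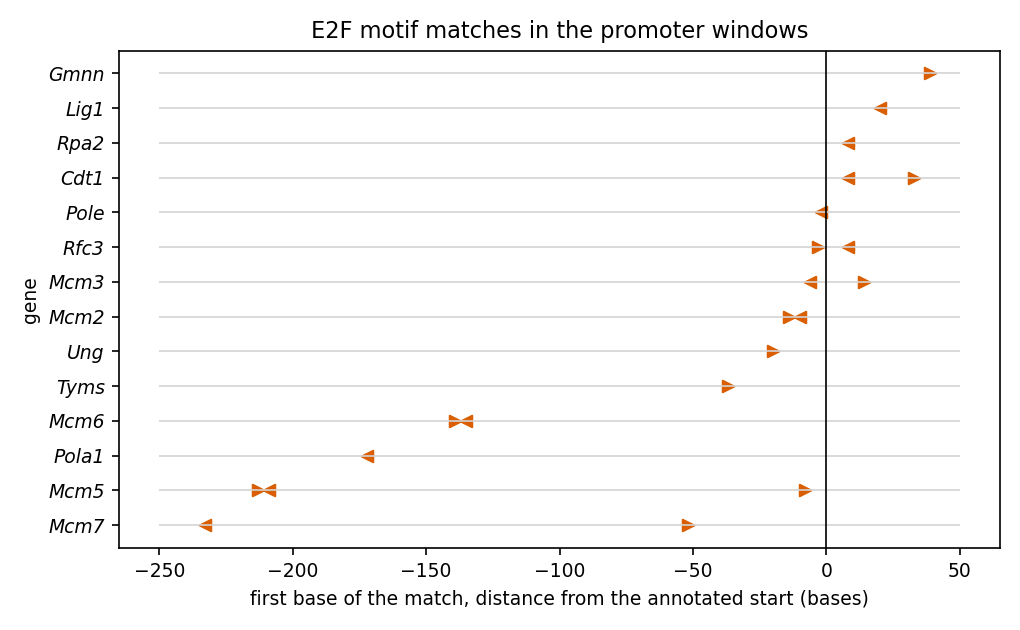
E2F motif matches in the 14 promoter windows that held one (y axis), by the distance of the first base of the match from the annotated start in bases (x axis); triangles pointing right are matches on the gene's strand and those pointing left on the opposite strand. The matches of Mcm2, Tyms and Ung lie shortly before the start, and those of Mcm6 and Pola1 lie 139 and 172 bases before it.

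Among the licensing genes, Cdc6, the loader of the Mcm ring, had the smallest p. Its normalized log2 intensity was 9.39, 9.47, 9.15 and 9.25 in Control 1 to 4 and 8.93, 8.80, 8.72 and 8.59 in Dex 1 to 4. Every Dex array lay below every Control array. The mean was 9.31 ± 0.14 (SD, n = 4) in Control and 8.76 ± 0.14 in Dex, a log2 fold change of -0.55 ± 0.15 (SE), or 68.1% of Control (adjusted p = 0.212, limma).

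Mcm4, a subunit of the helicase ring, measured 7.70, 7.84, 7.83 and 8.01 in Control and 7.56, 7.49, 7.33 and 7.13 in Dex. The groups did not overlap, and the log2 fold change was -0.47 ± 0.16 (adjusted p = 0.328, limma). A second Mcm4 probe gave -0.28 ± 0.14, again with no overlap between the groups. Its partner Mcm2 measured 11.31, 11.30, 11.02 and 11.34 in Control and 11.38, 11.39, 11.19 and 11.13 in Dex. Dex 1 and Dex 2 were above all Control arrays and Control 3 was below all Dex arrays, with the others overlapping, and the log2 fold change of 0.03 ± 0.15 (adjusted p = 0.965, limma) turned to -0.035 for the dimmer Mcm2 probe.

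The 6 genes of the Mcm ring thus ranged from -0.47 for Mcm4 to 0.03 for Mcm2. Mcm6 lay at -0.41 ± 0.20 and Mcm3 at -0.25 ± 0.14. Mcm3 measured 12.79, 12.95, 12.74 and 12.89 in Control and 12.74, 12.60, 12.54 and 12.49 in Dex, so that its groups did not overlap although the difference was small, 84.0% of Control. The groups of a second Mcm3 probe overlapped, at -0.35 ± 0.21. Mcm5 and Mcm7 lay at -0.10 ± 0.20 and -0.07 ± 0.14. Gmnn, which encodes geminin, the inhibitor that binds Cdt1 and blocks relicensing, had a log2 fold change of -0.50 ± 0.19 (adjusted p = 0.397, limma) and was lower in all 4 pairs of arrays with the same number. Orc1, the largest subunit of the origin recognition complex, lay at -0.26 ± 0.19. It was -0.16 without Dex 4 and -0.48 on the slide that holds both groups.

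All 4 origin firing genes on the array under their names had lower values in Dex in all 4 same-numbered pairs. Ccne1, which encodes cyclin E1, measured 12.31, 12.26, 11.80 and 12.10 in Control and 11.56, 11.44, 11.29 and 11.06 in Dex. Every Dex array lay below every Control array. The log2 fold change was -0.78 ± 0.18, or 58.4% of Control (adjusted p = 0.142, limma), and a second probe gave -0.74 ± 0.24. With the normexp background the adjusted limma p of the brighter probe was 0.0264, and over all alternatives it ran from 0.0252 to 0.771.

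Cdc7, the kinase that phosphorylates the loaded Mcm ring, measured 7.08, 7.16, 6.87 and 7.49 in Control and 6.82, 6.62, 6.59 and 6.11 in Dex. The groups did not overlap, but Dex 1 and Control 3 were 6.82 and 6.87, and Dex 4 was the lowest. The log2 fold change was -0.62 ± 0.21 (adjusted p = 0.334, limma). Ccne2, which encodes the related cyclin E2, measured 8.04, 7.86, 7.75 and 8.06 in Control and 7.57, 7.50, 7.30 and 6.55 in Dex, without overlap and with a log2 fold change of -0.70 ± 0.25 (adjusted p = 0.345, limma). Its second probe gave -0.60 ± 0.29 with overlapping groups. Mcm10, a factor that joins the activated helicase, had a similar mean difference, -0.63 ± 0.34, carried by Dex 3 (5.03) and Dex 4 (4.86), while Dex 1 (6.15) and Dex 2 (6.17) lay within the Control range of 5.82 to 6.32. With the normexp background the log2 fold changes were smaller, -0.21 for Mcm10, -0.35 for Cdc7 and -0.44 for Ccne2, and that of the licensing gene Mcm4 was -0.30. Without Dex 4 the log2 fold change of Mcm10 was -0.39, and on the slide that holds both groups it was -1.29.

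Of the polymerase genes none reached an unadjusted p of 0.05, and the adjusted p ran from 0.651 to 0.991. Pola2, the regulatory subunit of DNA polymerase alpha, measured 8.90, 9.02, 8.72 and 9.08 in Control and 8.81, 8.95, 8.40 and 8.25 in Dex, a log2 fold change of -0.33 ± 0.20 (adjusted p = 0.651, limma). Pola1, the catalytic subunit, measured 7.59, 8.15, 7.31 and 7.63 in Control and 7.99, 7.81, 6.82 and 6.50 in Dex, a log2 fold change of -0.39 ± 0.37. In both genes Dex 3 and Dex 4 were below all Control arrays and Dex 1 and Dex 2 were among them. Without Dex 4 the log2 fold changes were -0.21 for Pola2 and -0.13 for Pola1.

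Pold2, an accessory subunit of polymerase delta, had the smallest difference of all 34 genes. It measured 9.64, 9.62, 9.51 and 9.79 in Control and 9.64, 9.73, 9.78 and 9.37 in Dex, a log2 fold change of -0.01 ± 0.16 that became 0.03 when arrays were scaled to their 75th percentile. The catalytic subunit Pold1 lay at -0.08 ± 0.16, and the primase genes Prim1 and Prim2 at -0.10 ± 0.16 and -0.09 ± 0.21.

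Pcna encodes the sliding clamp, and its 2 probes differed in size. The brighter probe measured 12.55, 12.48, 12.09 and 12.22 in Control and 12.20, 12.18, 11.91 and 11.80 in Dex, overlapping in 2 Dex arrays, with a log2 fold change of -0.31 ± 0.18 (adjusted p = 0.615, limma). The dimmer probe measured 11.28, 11.07, 10.93 and 10.94 in Control and 10.55, 10.55, 10.48 and 10.18 in Dex, without overlap and with a log2 fold change of -0.61 ± 0.16 (adjusted p = 0.193, which ran from 0.0341 with the normexp background to 0.771 over the alternatives, limma).

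The products of the replication factor C genes load the clamp. Rfc3 measured 13.04, 12.93, 12.73 and 12.90 in Control and 12.90, 13.00, 12.52 and 12.39 in Dex, a log2 fold change of -0.19 ± 0.19 (adjusted p = 0.782, limma). Rfc5 measured 10.03, 9.97, 9.79 and 9.99 in Control and 10.38, 10.41, 9.67 and 9.77 in Dex. Dex 1 and Dex 2 were thus above all Control arrays and Dex 3 and Dex 4 below them, which gave a log2 fold change of 0.11 ± 0.22 (adjusted p = 0.899, limma). Rfc2 and Rfc4 lay at -0.17 ± 0.19 and -0.22 ± 0.26, and in both Dex 3 and Dex 4 were below all Control arrays. The log2 fold changes of Rfc2, Rfc3 and Rfc4 were -0.07, -0.09 and -0.06 without Dex 4 and -0.26, -0.29 and -0.39 without Dex 2. On the slide that holds both groups, Dex 3 minus Control 1 was -0.54, -0.52 and -0.88 for these genes and -0.36 for Rfc5.

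Of the genes for strand maturation, repair and chromatin assembly, Rpa3 differed most. It encodes the smallest subunit of replication protein A, the complex that coats single-stranded DNA. It measured 12.84, 12.84, 12.69 and 12.62 in Control and 12.16, 12.23, 11.63 and 11.69 in Dex, and every Dex array lay below every Control array. The log2 fold change was -0.82 ± 0.19, or 56.7% of Control (adjusted p = 0.132, 0.0343 with the normexp background and 0.0265 to 0.771 over all alternatives, limma).

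The other subunits of the same complex differed less, with log2 fold changes of -0.34 ± 0.18 for Rpa1 and -0.08 ± 0.16 for Rpa2. Fen1, the nuclease that trims Okazaki fragments, measured 14.36, 14.73, 14.17 and 14.21 in Control and 14.07, 13.97, 14.04 and 13.87 in Dex. The groups did not overlap, and the log2 fold change was -0.38 ± 0.17 (adjusted p = 0.496, limma), while a second Fen1 probe gave -0.29 ± 0.21 with overlapping groups. Lig1, the ligase that seals the fragments, lay at -0.24 ± 0.17, and Ung, which removes uracil from DNA, at -0.15 ± 0.31.

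Chaf1b, a subunit of the chromatin assembly factor that deposits histones behind the fork, had the highest log2 fold change of the 34 genes. It measured 12.21, 12.19, 11.97 and 12.04 in Control and 12.29, 12.43, 12.14 and 12.11 in Dex, higher in all 4 same-numbered pairs but with overlapping groups. The log2 fold change was 0.14 ± 0.15 (adjusted p = 0.807, limma).

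All 3 nucleotide supply genes found by name had lower values in Dex in all 4 pairs. Dut, the dUTPase that keeps uracil out of DNA and makes the precursor of thymidylate, measured 13.54, 13.22, 13.31 and 13.55 in Control and 12.52, 12.72, 12.75 and 12.78 in Dex. Every Dex array lay below every Control array, and the spread of the Dex arrays was small. The mean was 13.41 ± 0.16 (SD, n = 4) in Control and 12.69 ± 0.12 in Dex, a log2 fold change of -0.71 ± 0.15, or 61.0% of Control (adjusted p = 0.106, limma). The adjusted p ran from 0.00539 (normexp background) to 0.771 (slide as a fixed block) over the alternatives, and a second Dut probe gave -0.52 ± 0.16 without overlap.

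Tyms, thymidylate synthase, measured 8.94, 9.03, 8.50 and 8.98 in Control and 8.44, 8.62, 7.93 and 7.83 in Dex. Only Control 3 and Dex 2 overlapped, and the log2 fold change was -0.66 ± 0.23 (adjusted p = 0.35, limma). The probe named Tk1, thymidine kinase, had the largest mean difference of the 34 genes. It measured 9.39, 9.31, 8.33 and 8.80 in Control and 8.39, 8.47, 7.46 and 7.43 in Dex, with Control 3 below Dex 1 and Dex 2, and a log2 fold change of -1.02 ± 0.35, or 49.2% of Control (adjusted p = 0.327, limma). The array header places this probe on chromosome 3 of build rn3 (108928833 to 108928892), while the reference table of rat genes has Tk1 on chromosome 10, so that its identity is uncertain.

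**Figure D3:**
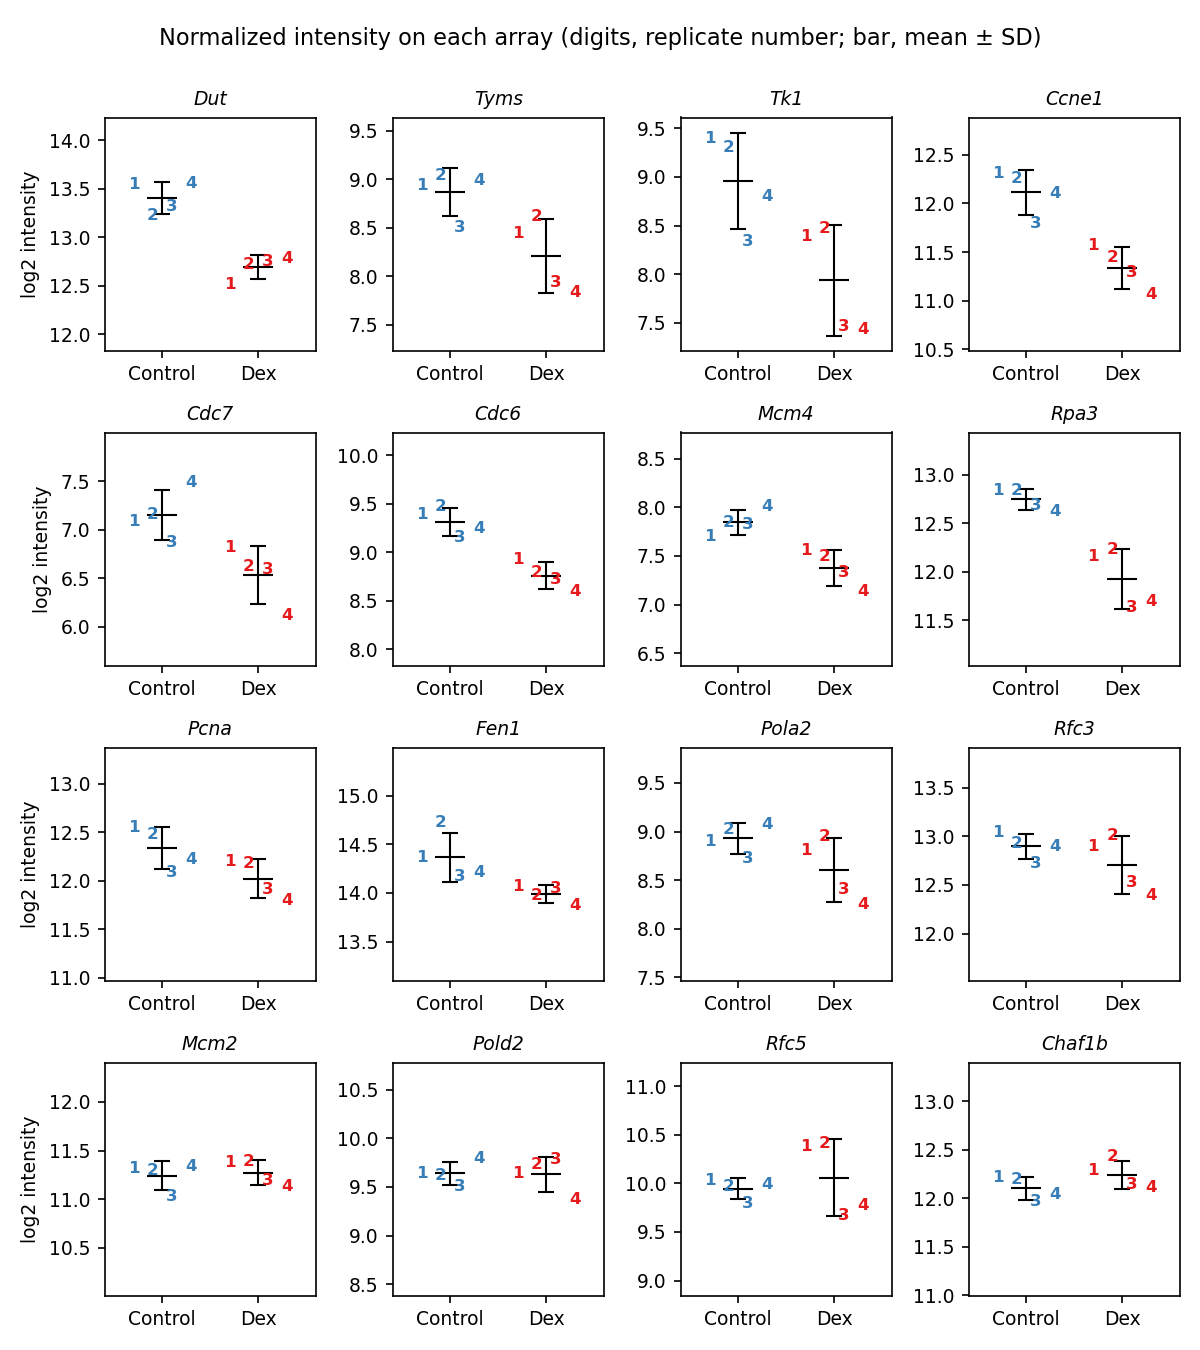
Normalized log2 intensity (y axis, each panel 2.4 log2 units high) of 16 genes on the 4 Control (blue) and 4 Dex (red) arrays; digits are the replicate numbers and the black bars the mean ± SD. Dut, Ccne1, Cdc6, Mcm4 and Rpa3 show no overlap between the groups, while Mcm2, Pold2, Rfc5 and Chaf1b do.

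The SD was larger among the Dex than among the Control arrays for 24 of the 34 genes and for 75.4% of all probes, with a median SD over all probes of 0.496 in Dex and 0.280 in Control. The median of the 34 differences from the mean of the Control arrays was -0.03 on Dex 1, -0.10 on Dex 2, -0.47 on Dex 3 and -0.54 on Dex 4. On Dex 1 to 4, 12, 10, 27 and 31 of the 34 genes lay below all Control arrays, against 25.6%, 28.5%, 33.1% and 33.5% of all probes. Among the Control arrays, Control 3 lay below the Control mean in 33 of the 34 genes, with a median of -0.17. The median over all probes, which the normalization holds near 0, ran from -0.06 to 0.10 in Dex.

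In pairs of arrays with the same number, 25, 24, 28 and 33 of the 34 genes were lower in Dex for numbers 1 to 4, with median differences of -0.13, -0.23, -0.27 and -0.53. Over all probes, 46.3%, 45.4%, 51.6% and 51.5% were lower. In all 4 pairs 18 of the 34 genes and 11.4% of all probes were lower, among these genes all the origin firing and nucleotide supply genes, 6 of the 9 licensing genes, 3 of the 7 genes of strand maturation, repair and chromatin assembly, Pcna and Pola2.

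**Figure D4:**
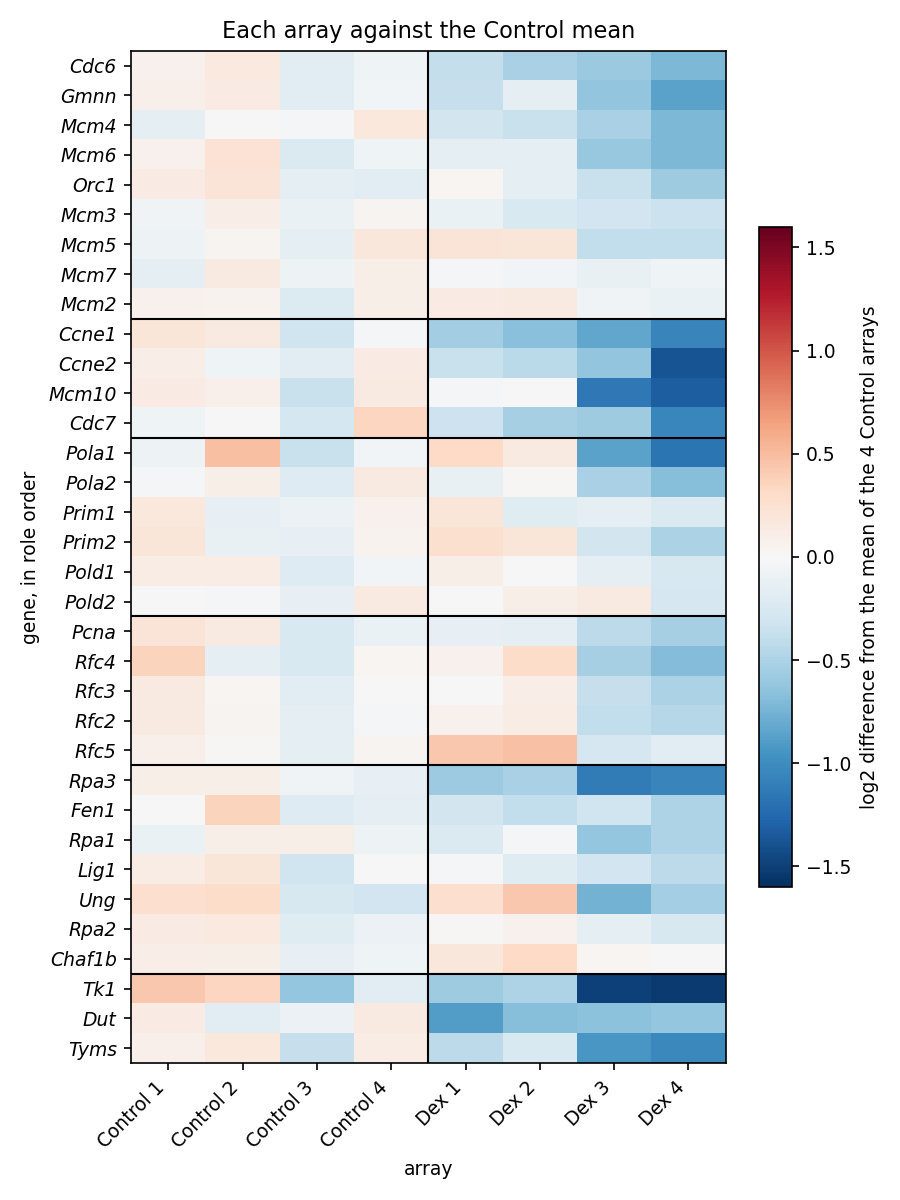
Difference of each array (x axis) from the mean of the 4 Control arrays for the 34 genes (y axis, in role order; color, log2 units). The blue of the origin firing and nucleotide supply genes is present on all Dex arrays, apart from Mcm10 on Dex 1 and Dex 2, and that of the polymerase and replication factor C genes is mostly on Dex 3 and Dex 4.

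The arrays lay on 3 slides: Control 1 with Dex 3, Control 2 to 4, and Dex 1, 2 and 4. On the slide that holds both groups, Dex 3 minus Control 1 was negative for 32 of the 34 genes, with a median of -0.50, against 55.7% of all probes and a median of -0.09. It was -0.79 for Dut, -1.02 for Ccne1, -1.21 for Rpa3, -0.67 for Cdc6, -0.38 for Mcm4 and -1.94 for Tk1, and 0.02 and 0.15 for Mcm7 and Pold2. This pair of arrays has no test of its own. limma with slide as a fixed block gave the same estimates and called none of the 34 genes (1 of all probes). limma with slide as a random block called 4 (Dut, Ccne1, Rpa3 and Cdc6) as lower, against 1.76% of all probes, with a correlation within slides of -0.24. The other slides hold a single group each, so that slide and treatment are largely confounded. An unadjusted limma p below 0.05 was reached by 9682 probes in this setting and by 4327 in the main fit, so its calls are less strict.

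**Figure D5:**
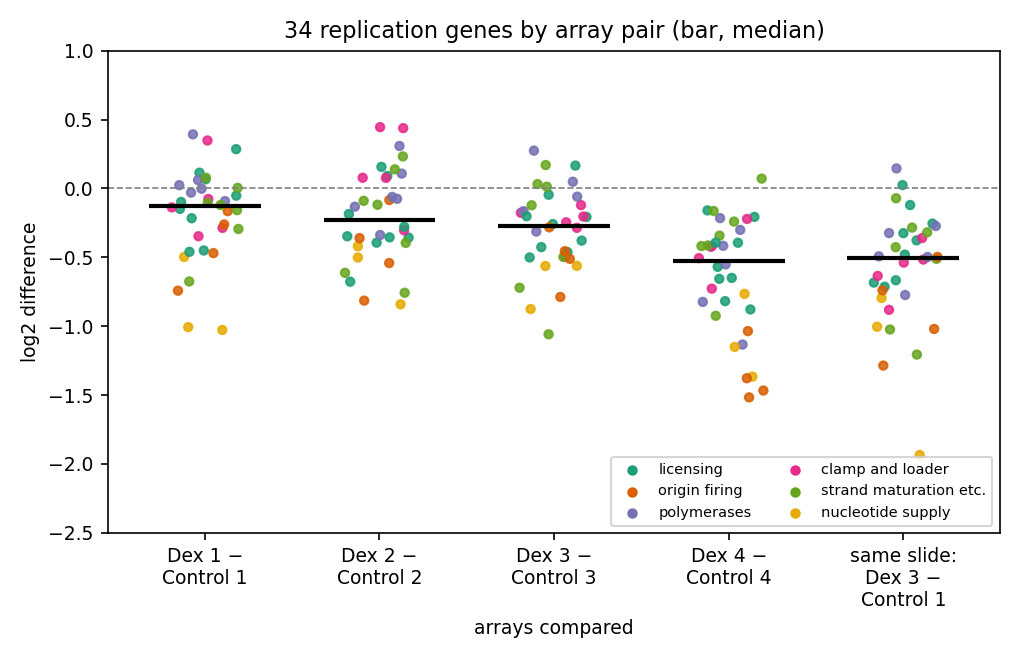
Log2 difference (y axis) of each of the 34 genes (points, colored by role) for the 4 pairs of arrays with the same number and for the pair on the slide that holds both groups (x axis); bars are medians. The medians run from -0.13 for pair 1 to -0.53 for pair 4 and lie at -0.50 on the shared slide.

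The scanner software marked 24911 to 34476 probes per array as well above background, with the lowest numbers on Dex 2 (24911), Dex 1 (26474) and Control 1 (28666). The 75th percentile of the signal before normalization was lowest on Dex 4 (264), Dex 3 (266) and Control 3 (318). It ran from 401 to 428 on the other arrays. The 34 genes had their lowest medians on the same arrays, Dex 4, Dex 3 and Control 3, and this relation was not tested. All 34 genes were above background on all 8 arrays and none was saturated. Of 14 markers of double positive thymocytes (T cell receptor, coreceptor and recombination genes) all were above background on all arrays, 11 had a lower Dex mean, and their median log2 fold change was -0.19. None of the 14 passed limma. Cd5 (-0.70 ± 0.19), Lck (-0.68 ± 0.15) and Ptcra (-0.61 ± 0.15) did not overlap between the groups (4.51% of all probes) and passed the signal to noise rule as lower (3.2%). With the normexp background limma called Lck and Ptcra (adjusted p = 0.0217 and 0.0237), against 1.02% of all probes as lower. Cd8b went the other way (0.52 ± 0.17). Over the 13 of these 14 markers with a value on every array (Cd8b has none on Control 1), the summed log2 level ran from 18.34 to 18.48 in Control. It was 18.45, 18.42, 17.99 and 18.01 on Dex 1 to 4. The summed level, set mostly by the brightest probes, was thus below all Control arrays on Dex 3 and Dex 4, the arrays with the lowest values of the replication genes. The mean log2 level of the same 13 markers ran from 12.49 to 12.64 in Control and from 12.03 to 12.43 in Dex, so that all Dex arrays lay below all Control arrays. The summed level of the 11 macrophage marker probes ran from 12.19 to 12.63 in Control and from 12.13 to 13.13 in Dex, with 8 of 11 higher in Dex. The mean log2 level of the 11 probes ran from 6.683 to 6.867 in Control and from 6.874 to 7.384 in Dex, without overlap but with neighboring values. Above background on all arrays were 9 of the 11. None of the 11 passed limma, and 3 had an unadjusted p below 0.05, all with a higher Dex mean: C1qb (0.84 ± 0.29), C1qc (0.97 ± 0.33) and the macrophage mannose receptor Mrc1 (2.12 ± 0.43, adjusted p = 0.087, without overlap). The summed level of the stromal and epithelial markers ran from 11.89 to 12.37 and from 12.20 to 12.67, with 8 of 9 higher. Their mean log2 level, 6.04 to 6.25 in Control and 6.42 to 6.72 in Dex, was higher on all Dex arrays. Only 6 of the 9 probes were above background on all arrays, and Dcn was on none, so that this mean includes values near background. Of these markers Pecam1, an endothelial gene, passed limma as higher in Dex (log2 fold change 1.36, adjusted p = 0.0208), a call that was lost with the replicate number as a block (adjusted p = 0.108) and with 75th percentile scaling (adjusted p = 0.0621). The summed level of the B cell markers ran from 8.60 to 9.04 and from 8.04 to 9.26, with 2 of 5 higher, and that of the erythroid markers from 8.58 to 10.49 and from 9.03 to 11.24, with 4 of 4 higher. The mean log2 levels of both lists overlapped between the groups. The part of the cell makeup in the values of the replication genes was not tested.

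The 7 listed genes that the array carries under other names were looked up through their accession or an older symbol. Rrm1 and Rrm2, the subunits of ribonucleotide reductase, which makes deoxynucleotides, and Orc6, a subunit of the origin recognition complex, were matched by accession. Orc6 measured 8.36, 8.27, 7.93 and 8.15 in Control and 7.62, 7.82, 6.81 and 6.38 in Dex, without overlap, a log2 fold change of -1.02 ± 0.33 (adjusted p = 0.298, limma). Rrm2 measured 11.17, 10.83, 10.72 and 10.99 in Control and 10.70, 10.40, 10.20 and 10.00 in Dex, without overlap, a log2 fold change of -0.60 ± 0.20 (adjusted p = 0.312, limma). A second Rrm2 probe gave -0.42 ± 0.23 with overlapping groups. The header places both Rrm2 probes on chromosome 19 and the reference table has the gene on chromosome 6, so that the identity of both is uncertain. Rrm1 lay at -0.34 ± 0.24 (-0.46 to -0.20 with an array left out in turn), with 3 probes between -0.38 and -0.32.

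The other 4 were matched by older names. Rfc1, the large subunit of the clamp loader, measured 12.28, 12.29, 12.20 and 12.33 in Control and 12.65, 12.75, 12.43 and 12.41 in Dex, so that every Dex array lay above every Control array, with a log2 fold change of 0.28 ± 0.15 (adjusted p = 0.57, limma). It passed the methods' signal to noise rule as higher in Dex, as did 3.59% of all probes. Its second probe gave 0.07 ± 0.31 with overlapping groups. Cdt1, the partner of Cdc6 in licensing, lay at -0.21 ± 0.21, Pole, the catalytic subunit of polymerase epsilon, at -0.17 ± 0.17, and Dbf4, the activating subunit of Cdc7, at 0.08 ± 0.22. With an array left out in turn, Cdt1 ran from -0.32 to -0.090, Pole from -0.26 to -0.11 and Dbf4 from -0.027 to 0.23. On the slide that holds both groups Dbf4 was 0.58. With these 7 genes 36 of 41 had a lower Dex mean, with a median log2 fold change of -0.26, and none passed limma.

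Other genes of the pathway were read from 3 lists, and none of them passed limma on the main values. With the normexp background limma called Timeless and Wdhd1 of the further replication factors, Tfdp1 and Tfdp2 of the E2F and RB list, and Impdh1, Ada and Dtymk of the nucleotide enzymes as lower, and Gart as higher, against 1.02% of all probes called as lower and 1.21% as higher. Of 36 further replication factors on the array, 35 had a lower Dex mean, with a median of -0.40, and 8 passed the signal to noise rule as lower, against 3.2% of all probes. Timeless, a fork protection factor, lay at -0.63 ± 0.14 (adjusted p = 0.123, limma) and its partner Tipin at -0.88 ± 0.25. Cdk2, the kinase partner of cyclin E, lay at -0.65 ± 0.20, and Top2a, which untangles copied DNA, at -0.55 ± 0.16. Of 10 genes of the E2F and RB list, 8 had a lower Dex mean, with a median of -0.31, and 4 passed the signal to noise rule, all as lower (3.2% of all probes). These were Tfdp1 (-0.70 ± 0.15) and Tfdp2 (-0.58 ± 0.15), the partners with which E2F factors bind DNA, the repressor E2f8 (-0.53 ± 0.18) and the retinoblastoma gene Rb1 (-0.47 ± 0.15).

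Of 28 further nucleotide enzymes, 21 had a lower Dex mean, with a median of -0.05, and the signal to noise rule marked 3 as lower and 3 as higher, against 3.2% and 3.59% of all probes. Ada, adenosine deaminase, measured 15.07, 15.46, 14.93 and 14.93 in Control and 14.25, 14.10, 13.94 and 14.19 in Dex, a log2 fold change of -0.98 ± 0.18 (adjusted p = 0.0582, limma). Impdh1, the enzyme that commits purines to guanine nucleotides, lay at -0.65 ± 0.14, and Dtymk, which phosphorylates the product of Tyms, at -0.45 ± 0.14. The 3 that were higher act in folate and purine synthesis. Shmt1, serine hydroxymethyltransferase, measured 9.67, 9.74, 9.06 and 9.12 in Control and 10.70, 10.82, 9.98 and 10.11 in Dex, a log2 fold change of 1.01 ± 0.27 (adjusted p = 0.193, limma). Gart and Gmps lay at 0.61 ± 0.14 and 0.38 ± 0.15, and in all 3 genes every Dex array was above every Control array.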

How the data were processed

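Cy3-labeled RNA was hybridized to Agilent 1-color arrays. The authors extracted intensities with Agilent Feature Extraction 9.5.3.1, which subtracts background. The deposited spot intensity is not normalized between arrays, and the deposited 0 or 1 flags mark spots that are well above background, saturated or outliers. The authors also deposited a log2 table, quantile normalized and summarized by median polish. Probe positions are on build rn3, per the file headers.

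Here outlier spots were left out and the intensities of 43379 non-control spots were quantile normalized, set to log2 and summarized by median polish for 41012 probes. Dex was compared with Control over all 8 arrays with limma (3.58.1, R 4.3.3), two-sided, adjusted over all probes. The methods' signal to noise statistic was compared with its values over the 70 possible assignments of arrays to groups, with all probes pooled. The number of arrays limits the precision.

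The genes and lists were chosen with earlier results of these data known. Values on every array are given for the 2 genes of each role with the smallest p and the one with the highest fold change. Further genes are given because their groups did not overlap, because their names differed, or as examples of lists, and these were chosen after their values were seen. Alternatives were the replicate number as a block, 75th percentile scaling, normexp (offset 50), dim probes left out, slide, the deposited table, each array left out, all probes of a gene and wider name matching. Deviations of same-numbered arrays from their group means correlated at 0.40, 0.13, 0.55 and 0.18 for numbers 1 to 4, all above 0.1, and the replicate number was therefore used as a block in an alternative (the main test has none), although Control 1 with Dex 2 (0.40) and Control 3 with Dex 4 (0.39) correlated as highly.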

Additional observations from a re-analysis of the deposited data

Results flagged for a closer look

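Of 68 groups of 4 arrays examined for 34 genes, 2 held an array far from the other 3, and chance alone marks about 1 in 20 such groups. Both were Control 3. Mcm2 measured 11.02 on Control 3 against 11.30 to 11.34 on the other Control arrays, and Mcm10 measured 5.82 against 6.25 to 6.32.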

How the results depend on the processing

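The count of genes with a lower Dex mean was 31 of 34, and it ran from 30 to 32 over the scaling, background, slide, dim-probe, deposited-table and probe-averaging alternatives. It was 34 of 37 with names matched also by accession and 36 of 41 with older names as well, an alternative added after the data were seen. The signal to noise rule marked 4 to 6 of the 34 genes over its alternatives. Leaving out an array gave 28 (without Dex 4) to 33 (without Dex 2), and medians of -0.19 to -0.37. limma called 3 of the 34 genes with normexp, 1 with dim probes left out (Dut) and 4 with slide as a random block, and it called 0 with every array left out in turn. With the replicate number as a block it called 0 of the 34, and 81 of all probes against 319. The count over all probes was 166 with 75th percentile scaling, 915 with normexp, 562 with dim probes left out, 1 with slide as a fixed block, 1838 with slide as a random block, and 96 to 249 with 1 array left out.

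Signs turned in 8 of the 34 genes, all with log2 fold changes between -0.15 and 0.14. Mcm2 (0.03) became -0.12 on the shared slide and with slide fixed, -0.0029 over both probes, and -0.043 to 0.077 with an array left out (below 0 without Control 3, Dex 1 or Dex 2). Pold2 (-0.01) became 0.028 with 75th percentile scaling, 0.15 on the shared slide and with slide fixed, and -0.060 to 0.077 with an array left out (above 0 without Control 4 or Dex 4). Rfc5 (0.11) became -0.36 on the shared slide and with slide fixed and -0.0050 without Dex 2 (up to 0.24 without Dex 3), and Chaf1b (0.14) became -0.071 on the shared slide and with slide fixed. Mcm7 became 0.025 there, Mcm5 0.0051 without Dex 3 and 0.0018 without Dex 4, Ung 0.053 without Dex 3 and Prim2 0.051 without Dex 4. Without the sign turning, values moved by over 1.5 times in 6 genes with normexp, in 18 on the shared slide (all further from 0) and in 13 without Dex 4. The causes were not tested. No value of the 34 genes is only a bound, since all were above background on every array.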
